A study of Rattus norvegicus with 24 samples.

Results

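Left ventricles from 6 rats with a ligated left main coronary artery and a high saturated fat chow, called ligated fat hearts below, were compared with left ventricles from 6 rats with a sham operation and normal chow, called sham chow hearts. Labels set which of the 24 arrays in the study these 12 were, but the comparison was chosen with earlier results of these data known. The other arrays came from 6 ligated rats on normal chow and 6 sham-operated rats on the fat chow. All rats were male Wistar rats of 300 to 350 g, each array held RNA of 1 animal, and feeding of the assigned chow began directly after surgery. Fat supplied 60% of the calories in the fat chow, listed as 25% palmitic, 33% stearic and 33% oleic acid. The light cycle was reversed, and work on the animals was done between hours 3 and 6 of darkness. The labels call the ligated hearts failing, but no infarct size or cardiac function was among the files used here, and the labels state no feeding time. The combined comparison changes surgery and diet together, so both single steps are given beside it for some genes and lists.

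After a coronary artery is tied off, the surviving ventricle carries a higher wall load, and its muscle cells switch on genes of the fetal heart such as the natriuretic peptides, while fibroblasts lay down collagen, fibulins and matricellular proteins around them. A healthy adult heart draws most of its energy from fatty acids. Fatty acids also act on the nuclear receptor PPAR-alpha, which raises genes of lipid handling such as Angptl4, Pdk4, Ucp3 and Acot1, and a failing heart commonly lowers the fatty acid oxidation genes.

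The arrays carried 22517 probes of 50 bases, and between 9023 and 10475 of them were detected on each of the 12 arrays. Values are normalised log2 signals, and differences are ligated fat minus sham chow on that scale. After a filter on dim probes, 10393 genes were tested with limma, and a gene is called here at a Benjamini-Hochberg adjusted p under 0.05. Arrays fell into 12 with a high background signal of undetected probes, 132.2 to 148.5 units, and 12 with a low one, 77.15 to 87.49 units. Of the ligated fat arrays 5 had a high background and 1 a low one, against 2 and 4 among sham chow arrays. The level of 2159 genes, 20.8% of those tested, differed between both kinds of array with the groups in the fit. The tests were therefore also run with background class as a block, and its values are printed for some of the calls it ended and some of the others. Pairwise correlations within a group were 0.969 to 0.992, and no pair of arrays was alike enough to be a copy. Heart muscle genes were present: 11 of 12 cardiomyocyte markers were tested and each was detected in all 12 arrays. This list was not used to tell ventricle from atrium.

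In matrix genes 3 hearts stood apart from their groups. Over the 54 measured genes of the collagen, elastic fibre and matricellular lists, animal 15 of sham chow was the highest of its 6 for 34 genes, with a median deviation of 0.45 from the group mean. Its level of Postn, the matricellular protein periostin of activated fibroblasts, was 12.32, above all ligated fat hearts, whose highest was 12.10. Among the ligated fat hearts animal 18 was the lowest for 33 of the 54 genes, with a median deviation of -0.49, and animal 28 was the highest for 33, with a median deviation of 0.56. The label of animal 15 is sham and that of animal 18 is ligated, and neither was moved. Counts without each of the 3 are given below. They were picked for their matrix values after these were seen, so larger matrix differences without animals 15 and 18, and smaller ones without animal 28, follow from that choice in part.

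Of 10393 genes, 60 were called (0.577%), 40 higher (0.385%) and 20 lower (0.192%) in ligated fat hearts. With background class as a block 30 were called, 21 higher (0.202%) and 9 lower (0.0866%), and 29 of these 30 were among the 60. Every ligated fat heart lay above every sham chow heart for 51 genes (0.491%) and below for 51 (0.491%). This held for 36 of the 60 called genes. All 60 kept their sign within the high-background arrays and within the low-background arrays. They were called on these same arrays, so this is no separate test. The low-background arrays hold only 1 ligated fat heart, and among high-background arrays alone 3 genes were called. At an unadjusted p under 0.05, 1341 of the 10393 genes differed, where 519.65 would be reached if no gene differed. The counts at this threshold given for lists below stand beside that share over all genes. Under median scaling in place of quantile normalisation 14 genes were called, 14 higher and 0 lower, and the median of all genes moved from -0.01 to 0.12. The count was 87 (0.837%) without animal 15, 99 (0.953%) without animal 18 and 170 (1.64%) without both. It was 23 without animal 37, the only low-background heart of the ligated fat group, 30 to 36 without sham chow animal 7, 9 or 22 or ligated fat animal 28 or 39, and 212 with array weights. Of the 60 called genes, 22 stayed called in each of the 12 fits with 1 array left out.

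**Figure D1:**
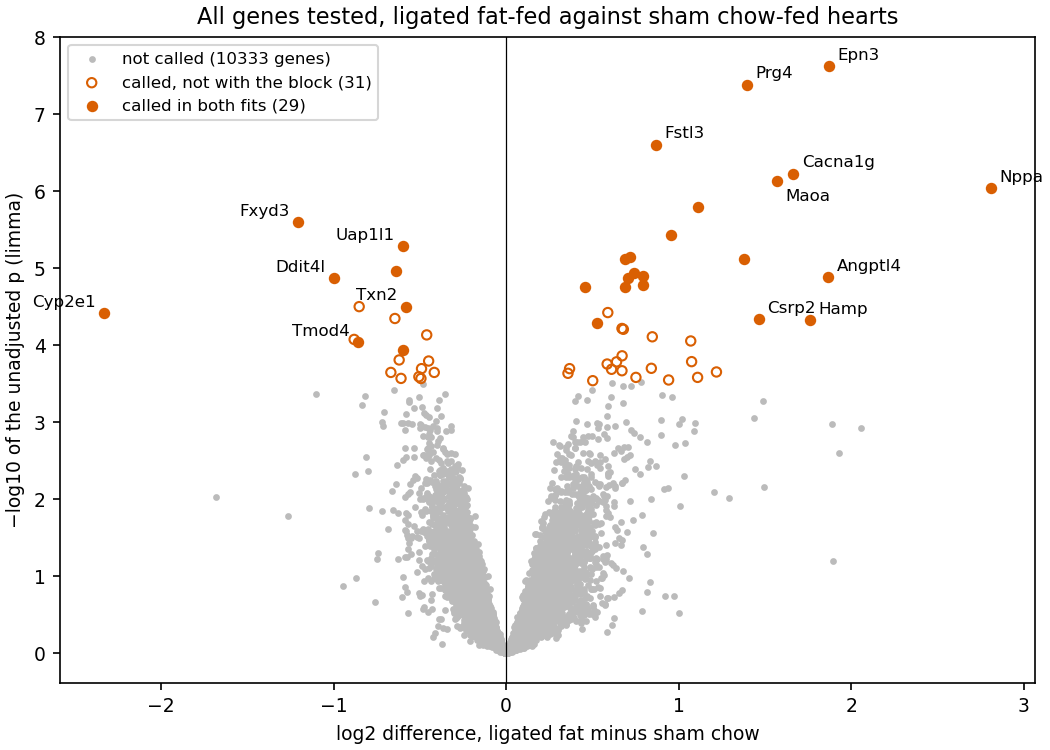
Each point is 1 of 10393 genes, with the log2 difference of ligated fat minus sham chow hearts on the x axis and −log10 of the unadjusted limma p on the y axis. Filled orange points are the 29 genes called with and without the block, and open ones the 31 called only without it. Nppa lies farthest to the right at 2.81 and Cyp2e1 farthest to the left at -2.33.

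Of the called genes 45 carry an official symbol, 30 higher and 15 lower. Of these, the 15 largest rises and all 7 falls that were called in both fits, with a sign that held when each of the 12 arrays was left out, were taken as the core set.

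**Figure D2:**
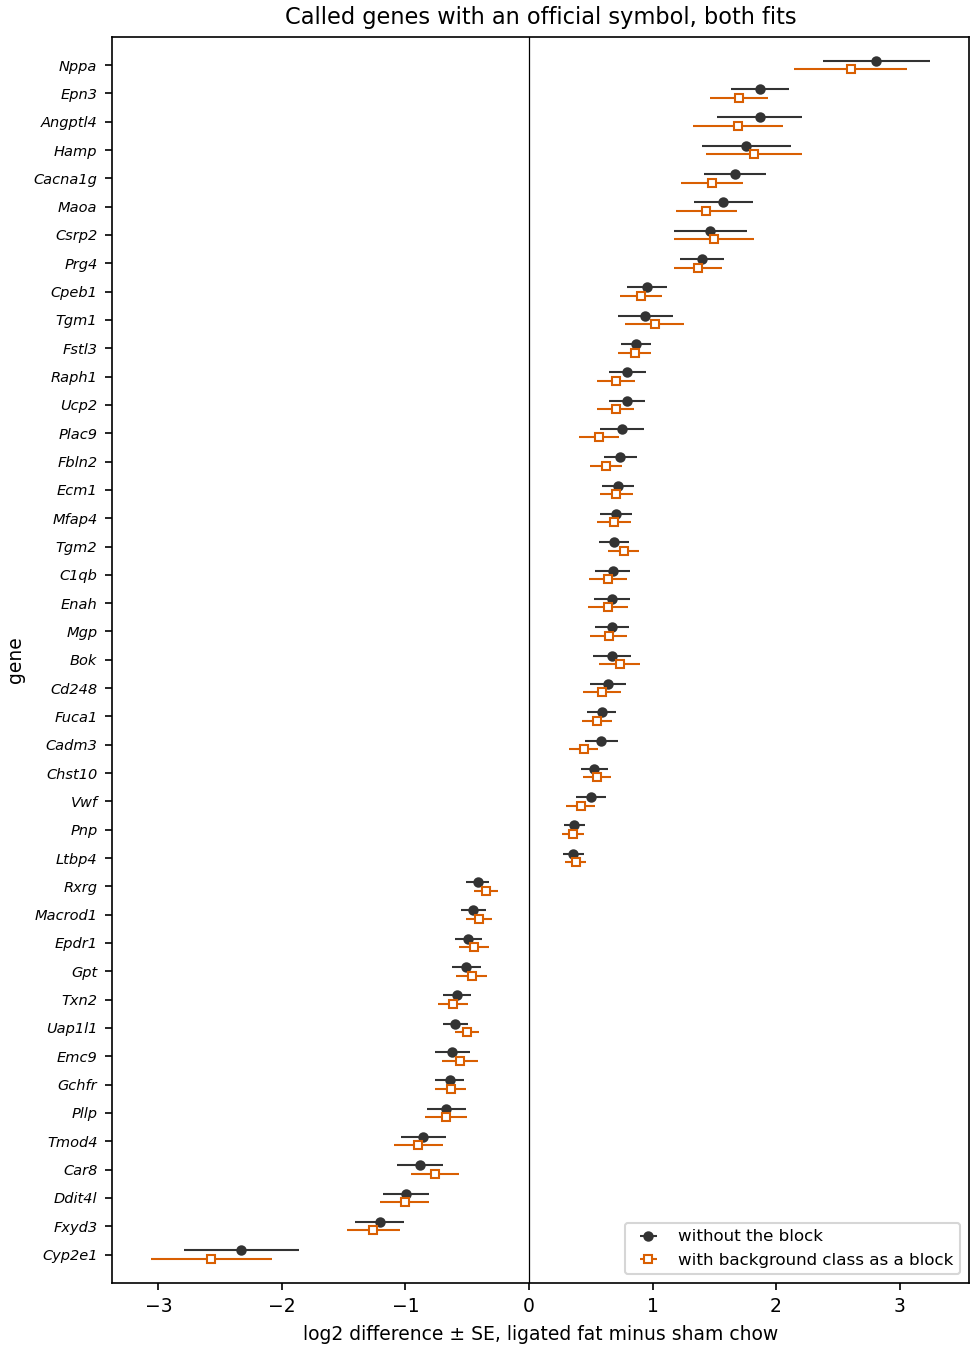
Log2 difference of ligated fat minus sham chow with its standard error for 43 of the 45 called genes with an official symbol, without the block (black) and with background class as a block (orange squares). No estimate changes sign, and the ranges run from -2.33 for Cyp2e1 to 2.81 for Nppa without the block.

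Of 10 measured genes of wall stress and the fetal heart 4 rose, 3 of them also with the block. Nppa encodes the precursor of atrial natriuretic peptide, a hormone released by stretched muscle. Its level was 10.60, 11.23 and 12.78 (lowest, median, highest) in sham chow hearts and 12.49, 14.30 and 15.27 in ligated fat hearts. Only animal 18 of the ligated fat hearts, at 12.49, fell within the sham range, whose top was animal 15. Nppa rose by 2.81 ± 0.43 (SE, n = 6 per group; limma, adjusted p = 0.00158; with the block 2.60, adjusted p = 0.00924), or 7.02-fold. Cacna1g encodes the pore of a T-type calcium channel that the adult ventricle normally holds at a low level. It lay at 6.31, 6.96 and 7.31 in sham chow and at 7.99, 8.62 and 8.90 in ligated fat hearts, with no overlap, and rose by 1.67 ± 0.25 (adjusted p = 0.00151). Csrp2, a LIM-domain protein of smooth muscle and developing vessels, was at 7.75, 8.13 and 8.74 and at 8.43, 9.82 and 10.46, with 1 ligated fat heart inside the sham range, and rose by 1.47 ± 0.30 (adjusted p = 0.0169). Enah, an actin regulator at cell contacts, rose by 0.67 ± 0.15 (adjusted p = 0.0366), a call lost with the block (adjusted p = 0.119).

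Other genes of the same programme did not pass. Nppb, the precursor of B-type natriuretic peptide, was 13.06, 13.59 and 13.98 in sham chow and 13.74, 14.14 and 14.56 in ligated fat hearts, a difference of 0.53 ± 0.18 (adjusted p = 0.2). Acta1, skeletal alpha-actin, was 12.97, 13.74 and 15.07 against 14.17, 14.57 and 15.39. The sham maximum was again animal 15, and the Acta1 difference of 0.87 (adjusted p = 0.165) became 1.11 (adjusted p = 0.029) without it. Myh7, the slow myosin heavy chain, differed by -0.05 (adjusted p = 0.857), Myh6 by 0.00 (adjusted p = 0.992; -0.05 with the block) and Ankrd1, a stretch-responsive ankyrin repeat protein, by 0.01 (adjusted p = 0.965; -0.21 under median scaling). Their signals reached 79.5%, 84.3% and 88.1% of the brightest probe on the array, where bead signals can compress differences. Of 13 listed wall stress and fetal genes 10 were measured, 9 were higher and 4 called, with a median of 0.60 (0.57 with the block), beside 4981 of all 10393 genes higher and a median of -0.01.

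The sequences just before the transcription start are shown for those genes of the 22 whose promoter holds a TATA box read in the direction of the gene within 100 bases of the start. Promoter sequences came from RefSeq on the GRCr8 assembly and were found for 18 of the 22 genes. Each run below is 5′ to 3′ on the gene's strand, ends 1 base before the start, and has TATAAA in capitals.
Nppa (chr5:163712084-163712183, + strand): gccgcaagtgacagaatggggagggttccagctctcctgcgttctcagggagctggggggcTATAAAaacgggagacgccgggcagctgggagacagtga
Angptl4 (chr7:15258682-15258781, - strand): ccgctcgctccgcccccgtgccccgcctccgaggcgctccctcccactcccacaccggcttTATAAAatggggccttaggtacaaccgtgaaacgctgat
Ecm1 (chr2:185981607-185981706, - strand): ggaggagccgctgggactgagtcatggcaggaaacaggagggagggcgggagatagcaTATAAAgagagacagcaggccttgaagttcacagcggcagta
Cyp2e1 (chr1:205269867-205269966, + strand): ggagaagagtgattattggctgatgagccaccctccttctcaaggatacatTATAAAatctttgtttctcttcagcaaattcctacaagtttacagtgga
Ddit4l (chr2:228801607-228801706, + strand): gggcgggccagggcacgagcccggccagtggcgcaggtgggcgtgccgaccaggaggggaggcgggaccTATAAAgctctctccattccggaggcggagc

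The box starts 39 bases before the start in Nppa and Angptl4, 42 in Ecm1, 49 in Cyp2e1 and 31 in Ddit4l. On either strand and anywhere in the 250 bases before the start, TATAAA was in 8 of the 18 promoters, while 12.9% of 33469 RefSeq promoters of that length hold it. CATTCC, the core of a motif of cardiac muscle genes, was in 2 of 18 (12.1% of all), AGATAA in 1 (10.3%), the nuclear receptor element AGGTCA in 3 (14.1%), CACGTG in 1 (5.59%) and a CArG box in 0 (1.5%). These matches describe letters only. Of the 8 genes with TATAAA, Nppa, Angptl4, Ecm1, Cpeb1, Fstl3 and Prg4 rose and Cyp2e1 and Ddit4l fell.

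**Figure D3:**
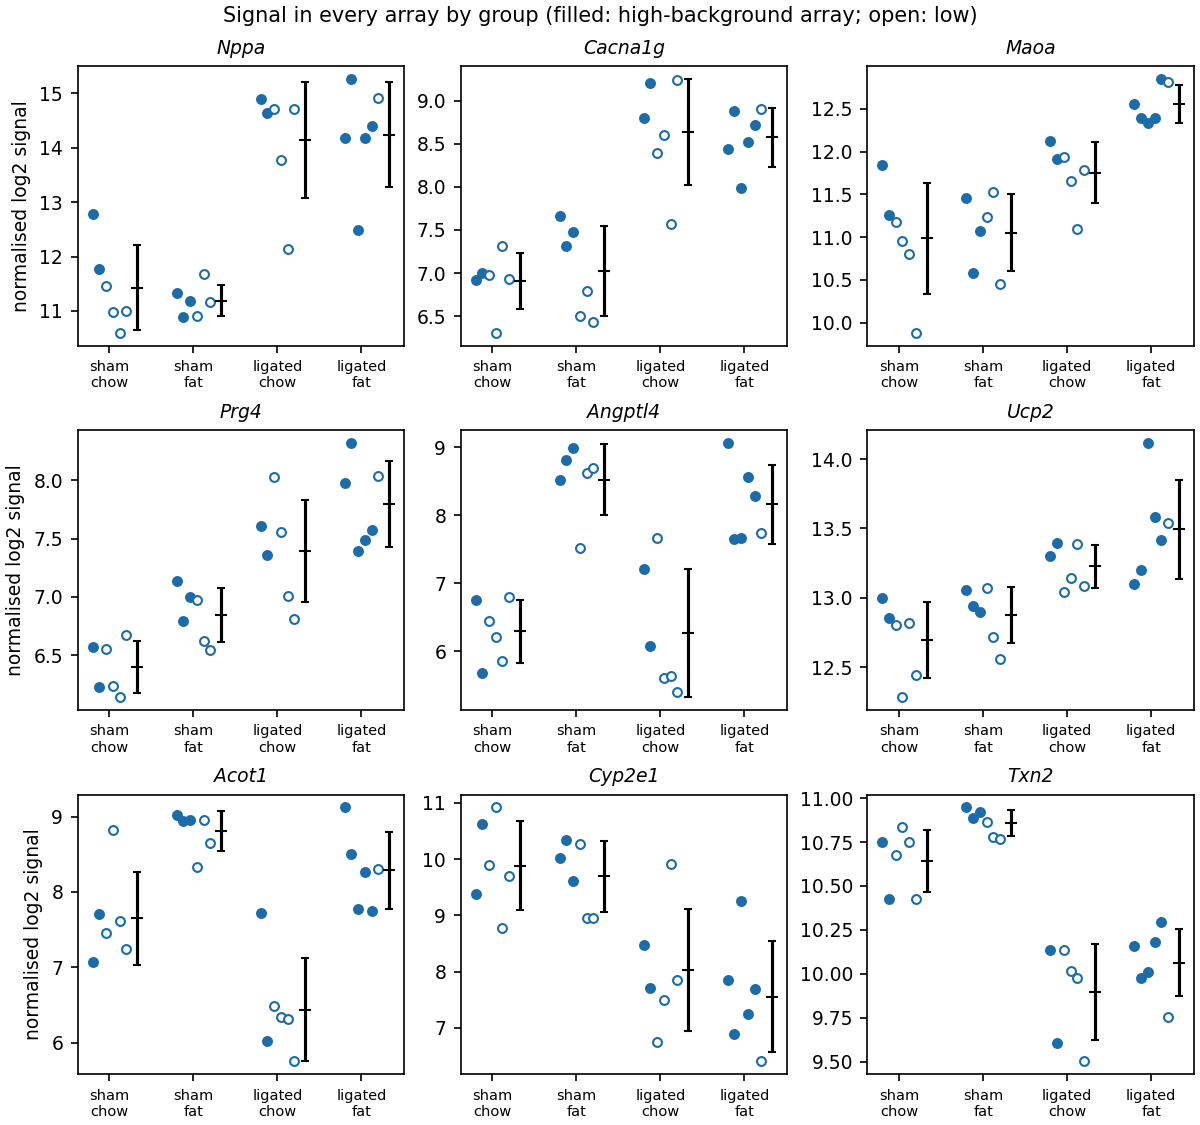
Normalised log2 signal of 9 genes in each of 24 arrays by group, with filled points for high-background and open points for low-background arrays, and the mean with its SD beside them. Nppa and Cacna1g are high in both ligated groups, Angptl4 is high in both fat groups, Maoa is highest in ligated fat hearts, and Txn2 is low in both ligated groups.

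Of 20 measured elastic fibre and microfibril genes 3 rose (2 with the block) and 17 did not pass. Fbln2, a fibulin of elastic fibres and remodelling valves, was 6.82, 7.09 and 7.69 in sham chow and 7.51, 7.94 and 8.13 in ligated fat hearts and rose by 0.74 ± 0.14 (adjusted p = 0.00736). Mfap4, a microfibril-associated glycoprotein, was 10.31, 10.41 and 11.04 against 10.99, 11.11 and 11.76 and rose by 0.70 ± 0.13 (adjusted p = 0.00736). In both genes 4 of 6 ligated fat hearts lay above every sham heart, and the sham maximum that the other two did not pass was animal 15. Ltbp4, which anchors latent TGF-beta to microfibrils, rose by 0.36 ± 0.08 (adjusted p = 0.0452; 0.0677 with the block), with 6 of 6 above. Ltbp2, a relative that binds fibrillin, spread from 6.03 to 8.97 in sham chow and from 7.40 to 10.51 in ligated fat hearts, and its difference of 1.93 ± 0.57 did not pass (adjusted p = 0.141). Of the 20 measured, from 22 listed, 17 were higher, and the median was 0.36 (0.24 with the block).

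Among collagen chains 14 of 20 were measured, 10 were higher, 0 were called by limma and 2 had an unadjusted p under 0.05, with a median of 0.18. Col1a1 was 9.52, 10.23 and 11.72 in sham chow and 9.96, 10.20 and 11.55 in ligated fat hearts, a difference of 0.08 (adjusted p = 0.936) that was -0.12 with the block. Col3a1 differed by 0.30 (adjusted p = 0.664) and Col1a2 by 0.26 (adjusted p = 0.532). Col18a1 differed by 0.32 (adjusted p = 0.509) and Col14a1, a fibril-associated chain, by 0.54 (adjusted p = 0.233). Col8a1, a short chain made by activated vessels and fibroblasts, was 9.92, 10.20 and 11.29 against 10.53, 11.44 and 12.69, a difference of 1.04 (adjusted p = 0.121) that was 1.23 without animal 15 (adjusted p = 0.0425).

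Matricellular genes and proteoglycans showed large differences with a wide spread between hearts. Of 28 genes 20 were measured, 17 were higher, 0 were called by limma and 10 had an unadjusted p under 0.05 (9 without Fmod), all of these higher, with a median of 0.43 (0.31 with the block). Thbs4, a thrombospondin of loaded muscle and tendon, was 5.98, 6.92 and 8.37 in sham chow and 6.94, 9.24 and 9.997 in ligated fat hearts, a difference of 2.06 ± 0.56 (adjusted p = 0.101). Ccn5 was 6.05, 7.01 and 8.44 against 7.96, 8.65 and 10.02, a difference of 1.89 ± 0.51 (adjusted p = 0.098). Ccn2, connective tissue growth factor, was 13.09, 13.21 and 14.39 against 13.56, 14.61 and 15.16, a difference of 1.02 ± 0.27 (adjusted p = 0.0974). The highest sham Ccn2 value belonged to animal 15 and the lowest ligated fat value to animal 18. Fmod, the collagen-binding fibromodulin, was not above background in any sham chow heart and was detected in 6 of 6 ligated fat hearts. Against the lowest detected signals it was at least 1.27-fold higher, a bound that was not tested. The limma difference of 0.63 (adjusted p = 0.0992) rests on sham values below background. With Fmod at the bound the median of the list was 0.37. Postn differed by 0.79 ± 0.71 (adjusted p = 0.649), and by -0.93 among high-background arrays, where animal 15 is 1 of 2 sham hearts. Without animal 15, 9 of the 54 genes of the 3 matrix lists were called in place of 3, among them Ccn2 (1.21, adjusted p = 0.0262), Ccn5 (2.16, adjusted p = 0.0409), Thbs4 (2.35, adjusted p = 0.0472) and Ltbp2 (2.30, adjusted p = 0.0492). Without animal 18 the number was 7, and without both it was 13, with a median over the 54 genes of 0.44 in place of 0.28. Without animal 28 it was 2, Fbln2 and Mfap4, with a median of 0.18, and 2 wall stress genes, Nppa and Cacna1g, were called in place of 4. Calls over all genes moved too, from 60 (0.577%) to 87 (0.837%) without animal 15 and 99 (0.953%) without animal 18. They numbered 170 (1.64%) without both and 34 (0.327%) without animal 28. The hearts were picked on these matrix values, so the matrix counts and adjusted p without them are no separate test.

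TGF-beta and activin modulators included called rises. Fstl3, a secreted follistatin-like protein that binds activin and myostatin, was 8.53, 8.72 and 8.98 in sham chow and 9.37, 9.56 and 9.95 in ligated fat hearts. Its groups did not overlap, and it rose by 0.87 ± 0.12 (adjusted p = 0.000861). Tgm2, a transglutaminase that crosslinks matrix proteins, was 8.86, 9.27 and 9.39 against 9.68, 9.85 and 10.12, also without overlap, and rose by 0.69 ± 0.12 (adjusted p = 0.00609). Gdf15, a stress-induced member of the family, differed by 0.70 (adjusted p = 0.098) and Fstl1 by 0.73 (adjusted p = 0.103; 0.87 and 0.029 without animal 15). Of 27 ligands, receptors and modulators 19 were measured, 13 were higher, 2 called, with a median of 0.20. Matrix proteases and inhibitors held 17 of 29 measured, 12 higher and 0 called by limma, with 4 at an unadjusted p under 0.05 and a median of 0.05 (0.15 with the block). There Mmp23 differed by 0.78 (adjusted p = 0.112), Adamts1 by 0.43 (adjusted p = 0.215), Mmp9 by -0.44 (adjusted p = 0.291), Serpinh1, the collagen chaperone, by 0.34 (adjusted p = 0.362) and Timp1, a metalloproteinase inhibitor, by 0.49 (adjusted p = 0.438).

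Further secreted and matrix genes were called outside these lists. Prg4, lubricin, was 6.14, 6.40 and 6.67 in sham chow and 7.39, 7.77 and 8.32 in ligated fat hearts and rose by 1.40 ± 0.18 (adjusted p = 0.000215), with no overlap. Ecm1, a secreted matrix glycoprotein, was 10.41, 10.65 and 10.85 against 11.07, 11.31 and 11.93 and rose by 0.72 ± 0.13 (adjusted p = 0.00609). Both genes kept their groups apart in every heart. Mgp, an inhibitor of calcification, was chosen after its values were seen. It had a median of 14.52 in sham chow and 15.09 in ligated fat hearts and rose by 0.67 (adjusted p = 0.0201; 0.0677 with the block), with no overlap.

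Of the measured PPAR-alpha-responsive genes, Angptl4 and Ucp2 rose and the others did not pass. Angptl4, a secreted inhibitor of lipoprotein lipase, was 5.68, 6.33 and 6.80 in sham chow and 7.65, 8.01 and 9.06 in ligated fat hearts, with no overlap. It rose by 1.87 ± 0.34 (adjusted p = 0.00736; with the block 1.69, adjusted p = 0.0413), or 3.65-fold, and was detected in 4 of 6 sham chow hearts. A second probe for Angptl4, dimmer at a mean of 6.03, differed by 0.10. Ucp2, an uncoupling protein of the inner mitochondrial membrane, was 12.28, 12.81 and 13.00 against 13.10, 13.48 and 14.12 and rose by 0.79 ± 0.15 (adjusted p = 0.00736), again without overlap.

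Acot1, an acyl-CoA thioesterase, was 7.08, 7.54 and 8.82 in sham chow and 7.74, 8.29 and 9.12 in ligated fat hearts, a difference of 0.63 (adjusted p = 0.36). Pdk4, which brakes glucose oxidation, differed by 0.47 (adjusted p = 0.395), Ucp3 by 0.54 (adjusted p = 0.367) and Vnn1, a pantetheinase, by 0.57 (adjusted p = 0.148). Of 23 PPAR-alpha-responsive genes 19 were measured, 11 were higher, 2 called higher, with a median of 0.06 (0.02 with the block). The list median was -0.12 for ligation on normal chow and 0.23 for the fat chow in ligated hearts.

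Genes of fatty acid uptake and oxidation lay slightly lower as a list. Of 29 genes 28 were measured, 26 were lower, 0 were called by limma and 7 had an unadjusted p under 0.05, with a median of -0.11 (-0.13 with the block, -0.02 under median scaling), beside 5412 of all genes lower. The steps had opposite signs, with a list median of -0.25 for ligation on normal chow and 0.09 for the fat chow in ligated hearts. Echs1, enoyl-CoA hydratase, differed by -0.40 ± 0.11 (adjusted p = 0.101) with 6 of 6 ligated fat hearts below every sham heart. Hadh differed by -0.29 (adjusted p = 0.286), the carnitine transporter Slc22a5 by -0.27 (adjusted p = 0.274) and Cpt2 by -0.16 (adjusted p = 0.361). Cpt1b, which admits fatty acids to the mitochondrion, differed by -0.18 (adjusted p = 0.608), Cd36, a fatty acid carrier, by -0.11 (adjusted p = 0.779), Acadm by -0.06 (adjusted p = 0.804) and Decr1 by -0.01 (adjusted p = 0.988; 0.11 under median scaling).

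Mitochondrial and nuclear receptor genes showed the same slight shift, with a single call. Among 22 measured of 26 genes of mitochondrial biogenesis and nuclear receptors 20 were lower, 1 called lower, with a median of -0.15. Rxrg, the retinoid X receptor that pairs with PPARs, was 13.22, 13.42 and 13.74 in sham chow and 12.85, 12.95 and 13.22 in ligated fat hearts and fell by 0.42 ± 0.10 (adjusted p = 0.045; 0.184 with the block). Ppargc1b, a coactivator of mitochondrial genes, was 7.75, 8.09 and 8.63 against 7.00, 7.37 and 7.73, and its difference of -0.72 (adjusted p = 0.098) did not pass despite groups that did not overlap. Ppara differed by -0.63 (adjusted p = 0.268), Ppargc1a by -0.48 (adjusted p = 0.227) and Pparg by -0.03 (adjusted p = 0.949; 0.02 with the block). Of tricarboxylic acid cycle and pyruvate genes 26 of 30 were measured and 23 were lower, with a median of -0.15 and 0 called by limma against 6 at an unadjusted p under 0.05. There Cs, citrate synthase, differed by -0.34 (adjusted p = 0.256), Pdp2 by -0.45 (adjusted p = 0.223), Sdhb by -0.20 (adjusted p = 0.302) and Idh3b by 0.36 (adjusted p = 0.215). Of oxidative phosphorylation genes 53 of 70 were measured, 43 were lower, 0 were called by limma and 6 had an unadjusted p under 0.05, with a median of -0.12. The 6 of 53 are no larger a share than the 1341 of all 10393 genes at that threshold. The members with the smallest p, the complex I subunits Ndufs7, Ndufc2, Ndufa5 and Ndufv1, differed by -0.33 to -0.25, and 16 of the 53 were bright enough to lie above 50% of the array maximum.

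Redox genes gave a rise and a fall. Txn2, the thioredoxin of mitochondria, was 10.42, 10.71 and 10.83 in sham chow and 9.75, 10.09 and 10.29 in ligated fat hearts, every one below every sham heart, and fell by 0.58 ± 0.11 (adjusted p = 0.0137; with the block -0.61, adjusted p = 0.0229). Ucp2, given above, is the rise. Gpx3, an extracellular glutathione peroxidase, was 12.19, 12.57 and 12.80 against 12.63, 13.28 and 13.46, a difference of 0.62 (adjusted p = 0.0518). Txnip, which binds thioredoxin, differed by 0.38 (adjusted p = 0.141). Of 29 antioxidant and thioredoxin genes measured 15 were higher and 14 lower, with a median of 0.03. Maoa, a monoamine oxidase of the outer mitochondrial membrane that releases hydrogen peroxide, belongs to no list. It was 9.88, 11.07 and 11.84 in sham chow and 12.33, 12.47 and 12.85 in ligated fat hearts, with no overlap, and rose by 1.57 ± 0.24 (adjusted p = 0.00151), or 2.97-fold. Gchfr, which regulates synthesis of tetrahydrobiopterin, was 9.61, 9.66 and 9.997 against 8.61, 9.12 and 9.33 and fell by 0.64 ± 0.12 (adjusted p = 0.00736).

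The remaining genes called in both fits are of mixed function. Hamp, hepcidin, the hormone that limits iron export from cells, was 9.33, 9.95 and 10.45 in sham chow and 9.67, 11.90 and 12.54 in ligated fat hearts. It rose by 1.76 ± 0.36 (adjusted p = 0.017), with animal 18 alone inside the sham range, and by 2.16 without that heart. Epn3, an endocytic adaptor, was 5.77, 5.89 and 6.08 against 7.44, 7.81 and 8.07 and rose by 1.87 ± 0.23 (adjusted p = 0.000215). It had the smallest unadjusted p of all genes, and it shared the smallest adjusted p with Prg4. Epn3 was detected in only 2 of 6 sham chow hearts, so its sham level lies near the array's limit. Cpeb1, which binds polyadenylation elements of messenger RNAs, was 6.09, 6.53 and 6.80 against 6.98, 7.495 and 7.75 and rose by 0.96 ± 0.16 (adjusted p = 0.00423). Raph1, an actin regulator of cell protrusions, rose by 0.79 ± 0.15 (adjusted p = 0.00833) and was detected in 2 of 6 sham chow hearts. Chst10, a sulfotransferase chosen after its values were seen, rose by 0.53 ± 0.11 (adjusted p = 0.0178).

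Cyp2e1, a microsomal cytochrome P450 that oxidises ethanol, ketones and fatty acids, was the largest fall. It was 8.78, 9.80 and 10.92 in sham chow and 6.41, 7.47 and 9.26 in ligated fat hearts, with 1 heart inside the sham range, and fell by 2.33 ± 0.47 (adjusted p = 0.0152; with the block -2.57, adjusted p = 0.0206). Fxyd3, a regulator of the sodium pump, was 7.88, 8.40 and 8.60 against 6.23, 7.12 and 7.63 and fell by 1.21 ± 0.20 (adjusted p = 0.00326), with no overlap. Ddit4l, an inhibitor of mTORC1 signalling, was 9.77, 10.38 and 10.46 against 8.77, 9.20 and 9.89 and fell by 0.996 ± 0.18 (adjusted p = 0.00736). Tmod4, a tropomodulin that caps actin filaments, was 9.18, 9.49 and 9.89 against 8.30, 8.61 and 9.23 and fell by 0.86 ± 0.18 (adjusted p = 0.0254; 0.049 with the block). Uap1l1 was 9.47, 9.67 and 9.90 against 8.97, 9.07 and 9.24 and fell by 0.60 ± 0.10 (adjusted p = 0.00534), with no overlap. Under median scaling none of the 7 falls was called. Among rises called in both fits, Ucp2, Fbln2, Mfap4, Ecm1, Raph1 and Chst10 also lost their call under it. In a fit of the 12 arrays alone, Csrp2, Hamp, Ucp2, Fbln2, Mfap4, Raph1 and Chst10 were not called.

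The remaining calls were made only without the block, and their genes were chosen after their values were seen. Higher were Tgm1 (0.94), Plac9 (0.75), Bok (0.67), a relative of BCL-2, Fuca1 (0.59), a lysosomal fucosidase, Cadm3 (0.59), a cell adhesion molecule, and Pnp (0.37), a purine nucleoside phosphorylase, with limma adjusted p between 0.0152 and 0.0497. Lower were Car8 (-0.88), Pllp (-0.67), Emc9 (-0.62), Gpt (-0.51), alanine aminotransferase, Epdr1 (-0.49) and Macrod1 (-0.45), with limma adjusted p between 0.0249 and 0.0484. Over the 12 fits with 1 array left out, the calls of these genes held in 0 (Plac9) to 11 (Fuca1) fits. Tgm1 held in 3 of them. In the other settings Plac9 was called in 3 of 11 and Tgm1 in 3 of 12.

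Complement genes were higher, with 1 call. C1qb, a chain of the C1q recognition molecule, was 9.84, 10.04 and 10.22 in sham chow and 10.47, 10.68 and 11.14 in ligated fat hearts, with no overlap, and rose by 0.68 ± 0.14 (adjusted p = 0.0201; 0.0762 with the block). Its partner chains C1qc (0.68, adjusted p = 0.0542) and C1qa (0.68, adjusted p = 0.0712) had the same difference and did not pass. Serping1, the C1 inhibitor, differed by 0.34 (adjusted p = 0.216). Of 21 complement genes 14 were measured and 13 were higher, with a median of 0.25. Macrophages are a known source of C1q, and macrophage markers were higher for 11 of 13 measured, with 0 called by limma, 2 at an unadjusted p under 0.05 and a median of 0.17, and Cd163, a haemoglobin scavenger receptor of resident macrophages, differed by 0.74 (adjusted p = 0.107). In bulk tissue more cells of a type and more RNA per cell cannot be told apart.

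Other immune lists showed little. Of 23 measured chemokines, cytokines and receptors 12 were higher and 0 called by limma, with 5 at an unadjusted p under 0.05 and a median of 0.03. Its members with the smallest p were Ccr2 (0.63), Ccl19 (0.52), Il6r (0.49) and Tnfrsf12a (0.52), with adjusted p of 0.235 to 0.355. Of 16 genes of antigen presentation 6 were higher and 0 called by limma, with 2 at an unadjusted p under 0.05 and a median of -0.10, and Tapbp, Ctss, RT1-A1 and Tap1 differed by -0.26, 0.46, -0.40 and -0.26.

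Ion channel genes other than Cacna1g did not pass. Of 29 measured channels and connexins 20 were lower, with a median of -0.11 (0.06 under median scaling). Scn4b, a sodium channel beta subunit, was 10.80, 11.24 and 11.57 in sham chow and 10.23, 10.59 and 11.25 in ligated fat hearts, a difference of -0.60 (adjusted p = 0.152). Kcnk2 differed by -0.45 (adjusted p = 0.141), Kcnd2, a pore of the transient outward current, by -0.50 (adjusted p = 0.325) and its partner Kcnip2 by -0.15 (adjusted p = 0.695). Of 18 measured sarcoplasmic reticulum genes 10 were lower and 0 called by limma, with 2 at an unadjusted p under 0.05. Hrc, a luminal calcium-binding protein, differed by -0.49 (adjusted p = 0.077), Trdn by -0.59 (adjusted p = 0.285), Jph2 by -0.30 (adjusted p = 0.409) and Slc8a1, the sodium-calcium exchanger, by -0.19 (adjusted p = 0.441). Slc8a1 was detected in only 3 of 6 sham chow and 1 of 6 ligated fat hearts, so its level lay near background and a change could be missed. Atp2a2, the calcium pump, differed by -0.10 (adjusted p = 0.475) at 99.3% of the array maximum, where a change could be hidden.

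Sarcomere and Z-disc genes were level, with 11 of 22 higher, 0 called by limma, 0 at an unadjusted p under 0.05, a median of -0.0037 and 12 above 50% of the array maximum. Of them Myom1 (-0.18), Tnni3 (-0.17), Csrp3 (0.19) and Ttn (-0.31) had the smallest p. The list of renin-angiotensin, adrenergic and endothelin genes held 10 of 17 higher and 0 called by limma, with 4 at an unadjusted p under 0.05 and a median of 0.06. Ece1 (0.29), Ace (0.55), the angiotensin-converting enzyme, Grk5 (0.59) and Agtr1a (-0.42) had adjusted p of 0.141 to 0.274.

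Further metabolic lists had 0 calls by limma each. For glucose uptake, glycolysis and glycogen 8 of 23 were higher (median -0.04, 4 at an unadjusted p under 0.05), with Ugp2 at -0.46, Pfkl at 0.40, Pfkm at -0.35 and Pfkfb1 at -0.74. Ketone body and branched-chain catabolism had the lowest median of the pathway lists, -0.20 (-0.17 with the block, -0.03 under median scaling), with 6 of 14 higher and 7 at an unadjusted p under 0.05, of which 5 were lower, with Bcat2 at -0.61 (adjusted p = 0.098), Bckdha at -0.30 and the monocarboxylate carrier Slc16a1 at 0.30. For lipid droplets and triglycerides 6 of 13 were higher (median -0.03, 3 unadjusted), with Dgat1, the final enzyme of triglyceride synthesis, at -0.39 (adjusted p = 0.121), Lpin1 at -0.54, Gpat4 at -0.38 and Gpam at 0.29. For cholesterol and fatty acid synthesis 9 of 20 were higher (median -0.01, 3 unadjusted), with Scd2 at 0.39, Mvd at -0.29 and Fads1 at 0.27.

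Among heat shock proteins and chaperones 13 of 23 were higher (median 0.09, 0.00025 with the block, 3 unadjusted), with Hspb7 at 0.32, Hspb6 at 0.17 (-0.01 under median scaling) and Hspe1 at -0.29. Hsp90ab1, among the 3, was not above background in any sham chow heart. Among ubiquitin ligase, autophagy and atrophy genes 10 of 16 were higher (median 0.02, 2 unadjusted), with Becn1 at 0.31, Atg7 at 0.30, Bnip3 at 0.20 and Fbxo40 at -0.20. Among apoptosis and ceramide genes 11 of 19 were higher (median 0.01, 1 unadjusted), with Casp8 at -0.29, Bad at 0.23 and Casp9 at 0.14. Each of these lists also had 0 calls by limma.

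No clock gene passed the test. Of 13 measured 5 were higher, 0 were called by limma and 0 had an unadjusted p under 0.05, with a median of -0.03. Per2 spanned 9.53 to 12.03 in sham chow and 10.26 to 11.70 in ligated fat hearts, a difference of 0.58 (adjusted p = 0.572). Nr1d1 differed by -0.87 (adjusted p = 0.484), Dbp by -0.29 (adjusted p = 0.688), Rora by 0.14 and Bmal1 by -0.09 (adjusted p = 0.916), and Per3 was not above background in any ligated fat heart. An index over 7 clock genes averaged -0.28 ± 0.86 (SD, n = 6) in sham chow and -0.44 ± 0.68 in ligated fat hearts.

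Markers of other cell types were read beside these results, and their part in them was not tested. All 13 measured fibroblast markers of 15 were higher, with a median of 0.29 (0.15 with the block, 0.18 without animal 28). Cd248, endosialin, rose by 0.64 ± 0.14 (adjusted p = 0.0397; 0.149 with the block). Its call held in only 5 of the 12 fits with 1 array left out, and the fit without animal 28 was among those that lost it. The summed level of the 13 fibroblast markers (log2) ran from 16.0 to 16.3 in sham chow and from 16.0 to 16.5 in ligated fat hearts, so the groups overlapped. Animal 15 was the highest sham heart for 8 of the 13 and animal 28 the highest ligated fat heart for 8. Macrophage markers summed to 12.7 to 13.8 and 13.1 to 13.8. Of 9 endothelial markers 6 were higher, with a median of 0.13, and Vwf, von Willebrand factor, rose by 0.50 ± 0.12 (adjusted p = 0.0499; 0.201 with the block), while Pecam1, Cdh5 and Kdr were not among the genes tested.

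Cardiomyocyte markers had a median of 0.00 (-0.19 under median scaling), with 9 of 11 above 50% of the array maximum. Among atrial markers Nppa itself and Myl7, the atrial light chain, were measured as higher, Myl7 by 1.90 ± 0.98 (adjusted p = 0.413), Gja5 differed by 0.33, and Myl4, Sln and Bmp10 were not among the genes tested. The summed level of the 3 ran from 11.3 to 12.8 in sham chow and from 12.6 to 15.4 in ligated fat hearts. Nppa alone ran from 10.60 to 12.78 and from 12.49 to 15.27, so this sum largely restates the Nppa rise. The list set for neutrophils gave 2 of 4 higher. Its member with the smallest p, Ly6g6e at 0.24, is a different gene from the neutrophil antigen Ly6g. Lymphocyte markers gave 2 of 7 higher with Nkg7 at -0.45. Smooth muscle and pericyte markers gave 4 of 6, with Rgs5 not above background in any sham chow heart, and adipocyte markers 3 of 5 with Retn at -0.48, while Adipoq, Lep and Plin1 were not among the genes tested. Erythroid markers gave 1 of 5 with Slc4a1 at -0.16, Schwann cell and neuron markers 3 of 3 with Prph at 0.36, and mesothelial markers 1 of 3 with Krt8 at 0.48. None of these lists held a call other than Nppa.

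**Figure D4:**
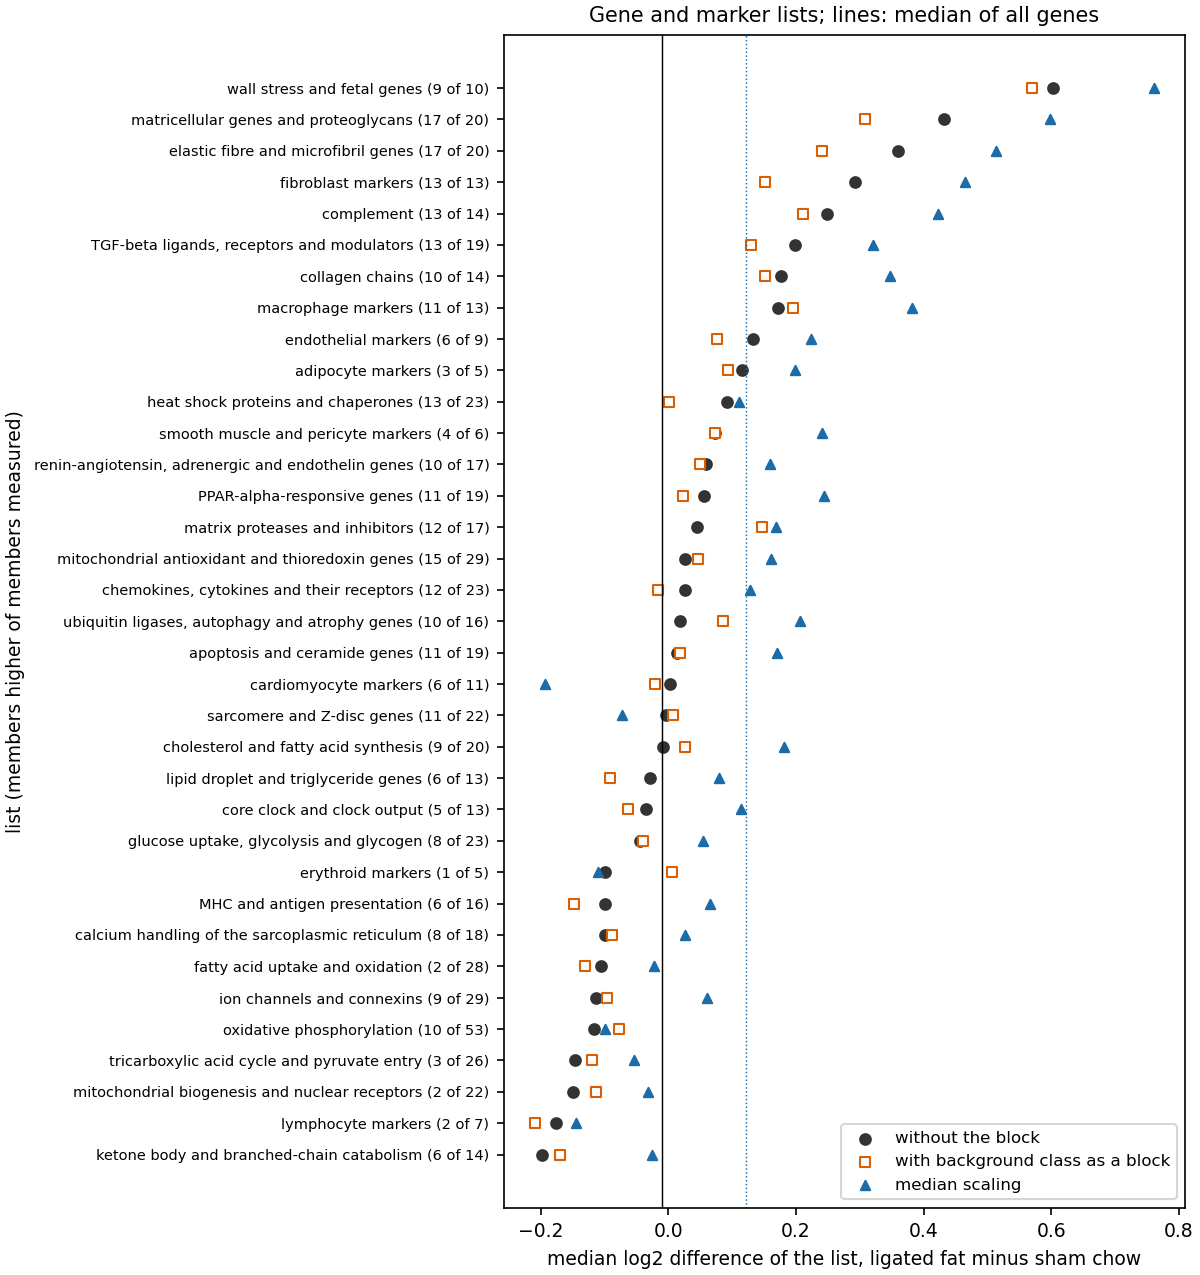
Median log2 difference of ligated fat minus sham chow over each list with at least 5 measured members, without the block (black), with it (orange squares) and under median scaling (blue triangles), with the number of members higher beside each name. The solid line at -0.01 and the dotted line at 0.12 are the medians of all genes under quantile normalisation and median scaling. Wall stress, matricellular and elastic fibre genes lie farthest to the right, from 0.36 to 0.60 without the block.

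Because surgery and diet both differ in this comparison, each difference is the sum of ligated chow minus sham chow and ligated fat minus ligated chow, comparisons that share arrays. In its own test, ligation on normal chow called 49 genes (0.471%), the fat chow in ligated hearts 1 (0.00962%), ligation on fat chow 92 (0.885%) and the fat chow in sham hearts 2 (0.0192%). With the block the same comparisons called 60, 0, 57 and 1, so the larger count for ligation on fat chow than on normal chow did not hold with it. The interaction of surgery and diet called 0 genes by limma, and 0 with the block. At an unadjusted p under 0.05 it gave 563 genes, and 580 with the block.

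In some called genes nearly all of the sum lay in the ligation step. Nppa differed by 2.71 (adjusted p = 0.0029) between ligated chow and sham chow hearts and by 0.10 (adjusted p = 0.953) between ligated fat and ligated chow hearts. For Cacna1g these values were 1.72 (adjusted p = 0.00218) and -0.06 (adjusted p = 0.948). For Csrp2 they were 1.58 (adjusted p = 0.00987) and -0.11 (adjusted p = 0.905). Fstl3 gave 0.81 (adjusted p = 0.00218) and 0.06, Ecm1 0.71 (adjusted p = 0.00562) and 0.01, Fxyd3 -1.198 (adjusted p = 0.00327) and -0.01, and Txn2 -0.75 (adjusted p = 0.00218) and 0.17.

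Angptl4 showed its difference on the fat chow. It differed by -0.02 (adjusted p = 0.993) for ligation on chow, 1.89 (adjusted p = 0.0577) for the fat chow in ligated hearts and 2.23 (adjusted p = 0.00956) for the fat chow in sham hearts. Ligated fat hearts against sham fat hearts gave -0.36 (adjusted p = 0.723).

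In other called genes both steps pointed the same way, and the second step alone did not pass. Maoa gave 0.77 (adjusted p = 0.177) for ligation on chow and 0.80 (adjusted p = 0.504) for the fat chow in ligated hearts, and ligation on fat chow gave 1.502 (adjusted p = 0.00261). Epn3 gave 1.43 (adjusted p = 0.0031) and 0.44 (adjusted p = 0.528), Prg4 0.996 (adjusted p = 0.00618) and 0.40 (adjusted p = 0.505), Cyp2e1 -1.85 (adjusted p = 0.0743) and -0.48 (adjusted p = 0.702), and Ddit4l -0.55 (adjusted p = 0.219) and -0.44 (adjusted p = 0.504).

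Acot1 shows steps of opposite sign behind a small combined difference. Its level was 5.75, 6.32 and 7.73 in ligated chow hearts, lower than the 7.08, 7.54 and 8.82 of sham chow hearts, and 8.33, 8.95 and 9.02 in sham fat hearts. Ligation on chow gave -1.21 (adjusted p = 0.0541) and the fat chow in ligated hearts gave 1.85 (adjusted p = 0.0111), the single call of that comparison, which was lost with the block. Pdk4 gave -0.56 (adjusted p = 0.372) and 1.03 (adjusted p = 0.263), Ucp3 -0.27 and 0.81, Cd36 -0.44 and 0.33, and Decr1 -0.26 and 0.25, none of them called. Nppb and Acta1 had opposite steps the other way round, with 0.79 (adjusted p = 0.0406) and -0.26 for Nppb and 1.25 (adjusted p = 0.0315) and -0.38 for Acta1.

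**Figure D5:**
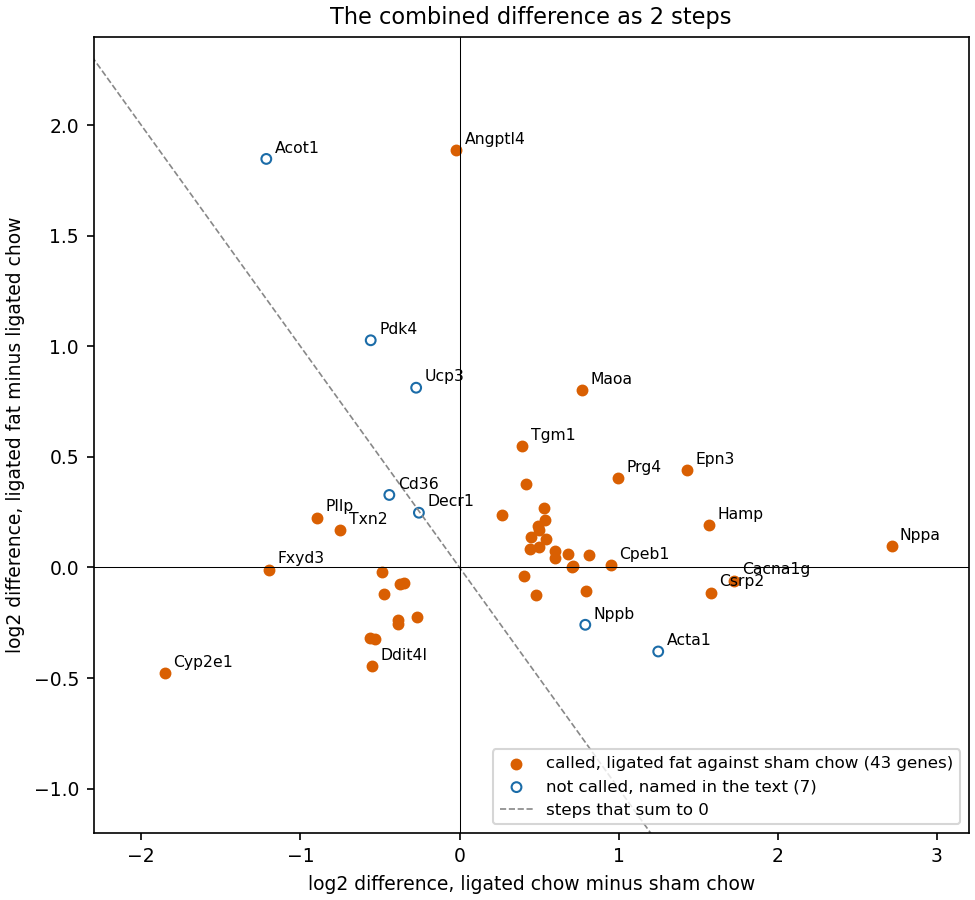
Log2 difference of ligated chow minus sham chow (x axis) and of ligated fat minus ligated chow (y axis) for 43 of the 45 called genes with an official symbol (orange) and 7 genes that were not called (open blue). Their sum is the combined difference, which is 0 on the dashed line. Nppa lies at 2.71 and 0.10, Angptl4 at -0.02 and 1.89, Maoa at 0.77 and 0.80, and Acot1 at -1.21 and 1.85.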

How the data were processed

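RNA of 24 left ventricles, 6 per group, was measured on Illumina bead arrays read with 1 dye. The deposited intensity table holds the mean bead signal per probe, and BeadStudio 3 is the tool the submitters' processing notes name, with neither background subtraction nor scaling seen in its values. Its detection p-value per probe and array, per the file headers, moves in steps of 1 in 825. The authors' own normalised intensity table was used as an alternative, and no label or header says how it was normalised. Signals were background-corrected with neqc (R 4.3.3, limma 3.58.1; negative controls inferred from the detection p), given an offset of 16, quantile normalised and put on the log2 scale. Probes were kept (10540) where 6 or more arrays had a detection p below 0.05, and the brightest probe stood for a gene with several (136 genes). Of the probes 6330 were named by accession, 4391 by symbol and 1404 by synonym through RefSeq, 10195 kept the file's name and 197 had none. Of 10393 genes tested, 6615 carry an official symbol.

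limma was fitted to 4 group means (20 residual degrees of freedom), with Benjamini-Hochberg adjustment over all genes. The number of arrays limits the precision, and the animals are separate. The high or low background class was split at the widest gap between arrays and used as a block. It is not a known chip or date, since the files name neither. The fit was tested on simulated data. The gene lists, the genes compared and the arrays were chosen with earlier results of these data known. The genes named are the 15 largest rises and up to 15 falls called with and without the block and of 1 sign in all fits without an array, the 4 members of each list and the 1 member of each marker list with the smallest p, and a fixed set of genes of cardiac stress, metabolism, ion channels and clock. Others are said to be chosen after their values were seen. The promoter motifs shown were chosen after the sequences were seen. Alternatives changed the block, the arrays, the normalisation, the background correction, the detection filter, the variance model, the array weights and the clock covariate. A few genes that this rule names are not reported here.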

Additional observations from a re-analysis of the deposited data

Results flagged for a closer look

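Of 330 sets of 6 values (165 named genes in 2 groups), 24 held a heart whose gap to its nearest neighbour was too large a part of the group's range by Dixon's test. Chance gives about 1 in 20 such sets. All values are normalised log2 signals.

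Animal 15 of sham chow was the highest of its group for Ccn2 at 14.4 (next 13.5), Col1a2 at 14.8 (next 14.0) and Mfap4 at 11.0 (next 10.6), and the lowest for Macrod1 at 13.3. Animal 18 of ligated fat was the highest for Bckdha at 12.4, Emc9 at 10.5 and Il6r at 8.02, and the lowest for Grk5 at 7.95 and Hamp at 9.67 (next 11.5). Animal 28 of ligated fat was the highest for Col1a1 at 11.5 and Fstl1 at 14.2 and the lowest for Txnip at 15.0. These are the same 3 hearts that stood apart in the matrix lists.

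Single values of other hearts were set apart as well. Among sham chow hearts, animal 7 was the highest for Acot1 at 8.82 and Cs at 9.47 and the lowest for Vwf at 10.4. Animal 13 was the highest for Kcnd2 at 10.2, Slc4a1 at 6.67 and Tgm1 at 7.39. Animal 22 was the highest for Gchfr at 10 and the lowest for Il6r at 5.92, and animal 9 was the lowest for Ly6g6e at 6.61. Among ligated fat hearts, animal 5 was the highest for Cd36 at 14.1 and the lowest for Ttn at 10.1, and animal 25 was the lowest for Ankrd1 at 15.6.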

How the results depend on the processing

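The main count was 60 genes called, 40 higher and 20 lower. It was 30 with background class as a block (21 and 9), 3 among high-background arrays only (3 and 0), 4 among low-background arrays only (3 and 1), 35 in a fit of the 12 arrays alone (21 and 14), 14 under median scaling (14 and 0), 37 without the detection filter (26 and 11) and 212 with array weights (124 and 88). It was 67 without background correction, 68 on the authors' normalised table, 63 with a stricter filter, 66 with trend and robust variance and 70 with the clock covariate. With 1 array left out it ran from 23 to 99 genes (higher 18 to 63, lower 5 to 36), with the low end at ligated fat animal 37 and the high end at animal 18. It was 30 to 34 without sham chow animal 7 (30) or 9 (31) or ligated fat animal 39 (32) or 28 (34), and 36 without sham chow animal 22. Without sham chow animal 13, 11 genes were called lower. Without animals 15 and 18 together, a setting chosen after seeing the data, 170 were called (104 and 66). The cause of these shifts was not tested, though the single-class, 12-array and left-out fits hold fewer arrays.

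Signs turned for genes that were not called. With the block Col1a1 was -0.118, Myh6 -0.0546 and Pparg 0.02. Among high-background arrays Ankrd1 was -0.0101, Bmal1 0.0427, Col18a1 -0.0347, Col1a1 -0.614, Col1a2 -0.0997, Col3a1 -0.336, Cpt1b 0.0205, Decr1 0.107, Myh6 -0.0632, Per3 0.0701, Postn -0.928 and Pparg 0.0753. Among low-background arrays Casp9 was -0.0509, Dbp 0.196, Hsp90ab1 -0.0334, Krt8 -0.169, Myh7 0.182, Rgs5 -0.0309, Slc8a1 0.0689 and Ttn 0.0768. Under median scaling Ankrd1 was -0.205, Decr1 0.106, Hspb6 -0.00514, Myh6 -0.241 and Pparg 0.137. With array weights Ankrd1 was -0.0218 and Pparg 0.128, and with the clock covariate Decr1 was 0.0175 and Myh6 -0.00351. Without animals 15 and 18 Ankrd1 was -0.00246, Bmal1 0.132 and Pparg 0.0463. With 1 array left out Ankrd1 ran from -0.0126 to 0.05, Bmal1 from -0.288 to 0.0409, Col1a1 from -0.157 to 0.368, Decr1 from -0.137 to 0.0691, Myh6 from -0.0157 to 0.0182 and Pparg from -0.107 to 0.0795. Over all named genes the left-out fits gave 1754 values on the same side of the threshold with the same sign, 175 that lost and 29 that gained a call, and the other settings gave 1847, 188 and 57. Probes near the top of the scale limit what can be seen for sarcomere and oxidative phosphorylation genes.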
